A study of Bos taurus with 14 samples.

Results

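Samples of bovine longissimus dorsi, a back muscle that yields the loin cuts, were ranked by the transcripts of 3 adipocyte genes, and the 5 samples with the highest and the 5 with the lowest values, 10 of 14 in all, were set against each other. Each sample was scored as the mean of log2(CPM + 0.5) of ADIPOQ, PLIN1 and CIDEC, where CPM is the count of a gene per 1000000 counts of the sample. The sets were thus chosen by the measured values of these 3 genes, which are given below as a description only and were kept out of the tests across genes. The 4 samples with scores between the sets were left out of the comparison of the sets and are given as values.

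The 14 animals were female and were sampled at postnatal day 485. Of their mothers, 7 were fed 100% of the requirement from day 158 of pregnancy to calving (control) and 7 were underfed in that period (restricted), to 70% by the description of the series and to 50% by the treatment protocol. All calves were managed in one way after birth, and all had feed without limit from day 301. Breed, kinship and measured fat content were not used here, and each group is a set of animals of one sex, age and muscle. Nothing in the labels says how the pieces of muscle were cut, and p-values measure only the spread between these samples.

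Intramuscular fat, seen as marbling in beef, consists of adipocytes that lie between bundles of muscle fibres. They arise from fibro-adipogenic progenitors in the connective tissue, under the control of the nuclear receptor PPARG, and keep triglyceride in a droplet coated with perilipin. In cattle, adipose tissue rather than the liver is the main site of fatty acid synthesis, where acetyl-CoA carboxylase and fatty acid synthase make saturated chains that elongases and stearoyl-CoA desaturase then modify. In a bulk sample, fewer adipocytes and less RNA per adipocyte cannot be told apart.

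The rich set held control 4, control 2, control 3, control 7 and restricted 7, with scores of 4.16, 4.37, 4.64, 4.82 and 4.93 in that order. The poor set held control 6, restricted 5, restricted 4, control 1 and restricted 3, with scores of 1.47, 2.80, 3.41, 3.49 and 3.63. Control 5, restricted 2, restricted 1 and restricted 6 lay between them at 3.64, 3.66, 3.85 and 3.95. Values for single samples are given below in these orders of rising score. The lower boundary was narrow, since restricted 3, the last sample inside the poor set, and control 5, the first outside it, were 3.63 and 3.64. At the upper boundary restricted 6, outside, was at 3.95 and control 4, inside, at 4.16. Control 6 stood apart below all others, and the scores of the other 13 samples ran from 2.80 to 4.93.

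ADIPOQ, the gene of the hormone adiponectin, was at 13.96, 11.2, 15.3, 17.1 and 21.6 CPM in the rich set and at 1.098, 3.77, 5.72, 6.65 and 5.16 CPM in the poor set. PLIN1, the perilipin of the adipocyte's large droplet, was at 23.7, 30.2, 30.03, 42.4 and 30.2 CPM in the rich set and at 4.64, 11.5, 15.3, 14.8 and 20.04 CPM in the poor set. CIDEC, which promotes the fusion of droplets, was at 15.96, 24.1, 31.9, 29.3 and 41.1 CPM in the rich set and at 2.07, 6.13, 11.7, 12.4 and 15.9 CPM in the poor set. The 3 genes ordered the samples alike at the low end, where control 6 was lowest for each, and differently at the high end, where PLIN1 was highest in control 7 and the other two in restricted 7. In control 6 the score rested on 18 reads of ADIPOQ, 76 of PLIN1 and 34 of CIDEC.

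**Figure D1:**
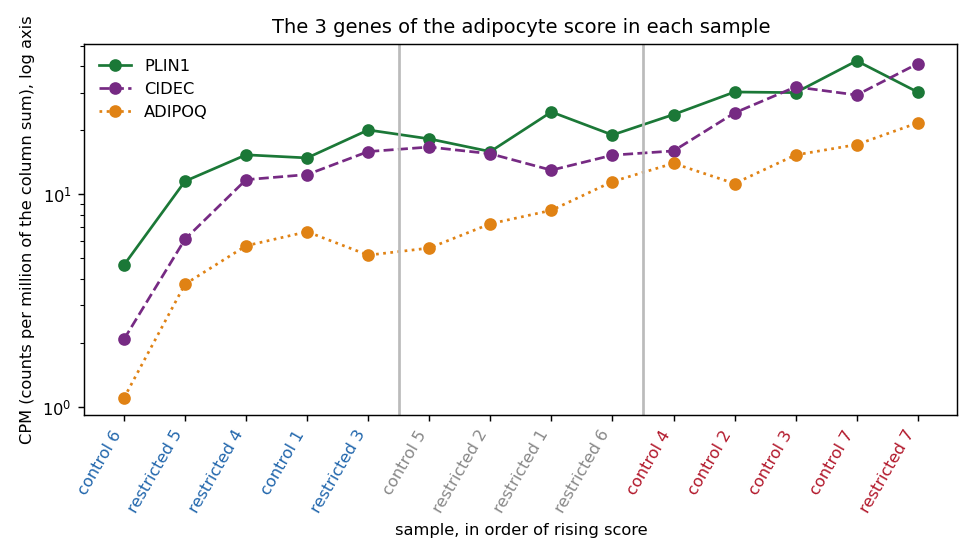
CPM of ADIPOQ, PLIN1 and CIDEC (log axis) in the 14 samples, placed in order of rising score, with the 5 poor samples left of the first vertical line and the 5 rich samples right of the second. Control 6 is lowest for all 3 genes, and the samples on either side of each line are close to each other.

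The rich set held 4 control and 1 restricted animals, the poor set 2 control and 3 restricted, and the samples between them 1 and 3. Diet was therefore a covariate of the fits reported below. An alternative without it called 30 genes on the score over 14 samples, 29 of them among the 29 called with it. The score itself was 3.80 ± 1.14 in control and 3.75 ± 0.64 in restricted animals (SD, n = 7 each), a difference of -0.052 that was smaller than the SD of either group. Scores ran from 1.47 to 4.82 among controls and from 2.80 to 4.93 among restricted animals. Depth was 15515905 to 17325779 counts per rich sample and 14728011 to 16390907 per poor sample, and 15307 to 15725 against 15075 to 15496 genes with a read. Titles of the samples end in A or B, a letter the labels do not explain, and 3 of the 5 rich and 0 of the 5 poor samples end in B. The interferon-induced gene MX1 was at 83.3, 46.8 and 38.6 CPM (scaled as the values that follow) in restricted 7, control 7 and restricted 4 and at most 8.98 CPM elsewhere, so 2 of the 3 libraries high in interferon genes were in the rich set.

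The remaining CPM values use library sizes scaled by TMM, the trimmed mean of M-values, and error values of means are SDs over the 5 samples of a set. The first comparison asked which other genes differ between the sets. No single gene outside the score passed the test by edgeR. The fitted log2 fold change was positive for 6269 of all 12250 genes tested. It was positive for 15 of 21 tested adipocyte genes, 18 of 23 of fatty acid synthesis and desaturation and 33 of 33 of the fibrillar matrix. For the interferon response it was positive for 20 of 20 and for slow fibres for 0 of 17. Members of a list are not separate observations, and several of these counts changed in the alternative fits given below. FABP4, an adipocyte gene described without a p-value, had a fitted ratio of 4.27-fold (95% interval 2.15 to 8.45). With p-values of edgeR's quasi-likelihood F test adjusted by Benjamini-Hochberg, 0% of 12250 genes passed the adjusted threshold of 0.05 as higher (0 genes) and 0% as lower (0 genes), the smallest adjusted p being 0.152. At an unadjusted p under 0.05 there were 584 genes, 344 higher and 240 lower in the rich set, and limma's voom also called 0. DESeq2 called 24 genes (0.196% of 12245) higher and 5 (0.0408%) lower, and without control 1 edgeR called 10 higher.

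All 5 rich samples lay above all 5 poor samples for 54 genes (0.441% of those tested) and below them for 55 (0.449%). With scaling to library size alone these counts were 123 and 8, and the TMM factors were 0.993 to 1.11 in the rich and 0.949 to 1.03 in the poor samples. Lack of overlap thus depended on the scaling. Where it is given below for single genes, it refers to TMM-scaled values and is a description only.

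The second comparison used the score as a continuous covariate over all 14 samples, with diet, so that the distance of control 6 from the other poor samples also counted. Here 28 genes (0.216% of 12968) passed edgeR's adjusted threshold as higher with a higher score and 1 (0.00771%) as lower. The slopes of the 28 ran from 0.28 to 1.55 log2 units per unit of score, where 1 unit is a factor of 2 in the geometric mean of the 3 score genes, apart from the pseudocount of 0.5. Of the 28, 9 were adipocyte genes and 19 were others. The 9 measure the same cells as the score, so that they passed is no separate evidence. The 9 are described below by values, some with a slope, and without p-values. Among the 19 are ELOVL6, ACACA and TKT of fatty acid synthesis, and CCDC3, a secreted protein of fat and endothelium. Whether any of the 19 goes with more than adipocyte content was not tested. MDFI and SLC13A3, also among the 19, are a description only, for a reason given below. Control 6 had the lowest value of 27 of the 28 and restricted 7 the highest value of 21.

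**Figure D2:**
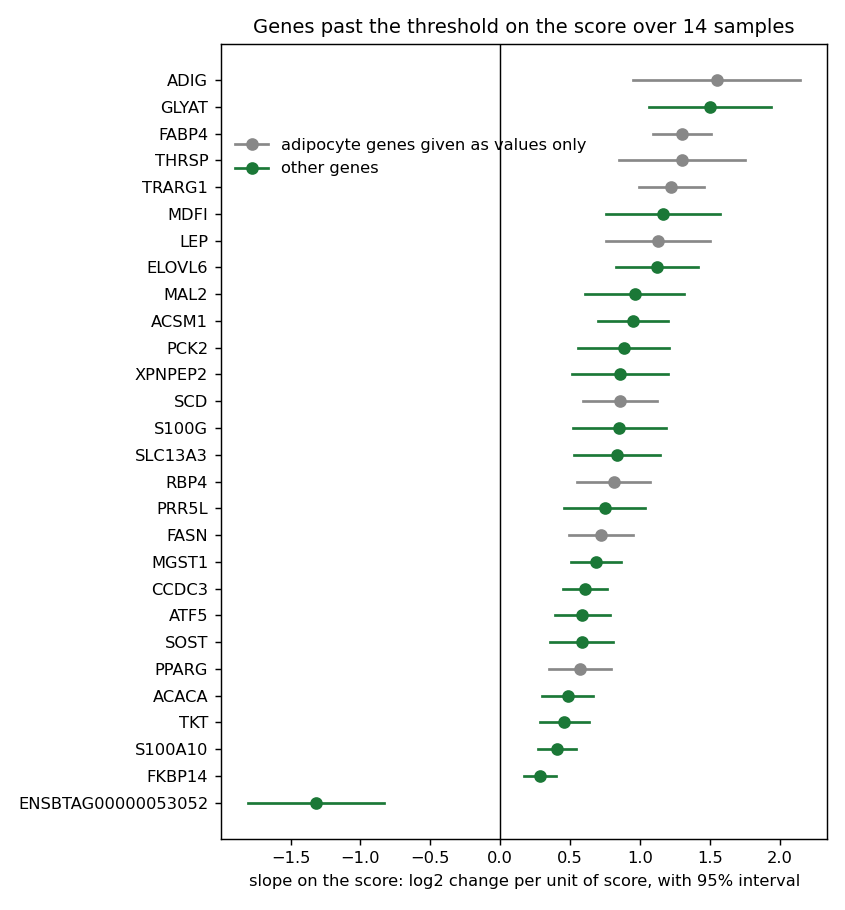
Slopes on the adipocyte score (x axis, log2 change per unit of score) of 28 of the 29 genes past the threshold over 14 samples, with 95% intervals as bars. Adipocyte genes, described in the text without p-values, are in grey and the others in green. Of the slopes shown, 27 are above 0, from 0.28 for FKBP14 to 1.55 for ADIG, and 1 is below 0.

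Of the genes known for adipocytes, FABP4, which carries fatty acids in the adipocyte's cytosol, had the smallest error relative to its slope among the 28. It was at 34.3, 29.3, 69.1, 52.9 and 68.9 CPM in the rich set and 2.91, 9.69, 17.3, 17.7 and 27.98 CPM in the poor set, with 19.9, 33.6, 29.2 and 24.1 CPM in the samples between. The sets did not overlap, and the 2 samples lowest in score were also the 2 lowest in FABP4. The mean was 50.9 ± 18.7 CPM in the rich and 15.1 ± 9.42 CPM in the poor set, and the slope was 1.3 ± 0.098 (SE), or 2.46-fold per unit of score. TRARG1, a partner of the insulin-regulated glucose transporter in fat cells, was at 11.7, 17.1, 18.5, 30.1 and 28.05 CPM in the rich set and 1.01, 4.78, 8.42, 11.4 and 11.3 CPM in the poor set. Its sets did not overlap either, by a narrow gap between control 4 on one side and control 1 on the other, and the slope was 1.22 ± 0.11 (SE). Over 23 alternative fits the slope of FABP4 ran from 1.23 to 1.36.

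LEP, the gene of leptin, was at 2.05, 2.74, 4.41, 2.45 and 7.52 CPM in the rich set and 0.119, 1.45, 1.17, 2.24 and 2.91 CPM in the poor set. Restricted 7 was far above the rest, control 6 had 2 reads, and the sets overlapped. RBP4, the retinol carrier also made by fat, was at 7.196, 6.58, 10.1, 7.72 and 11.8 CPM against 2.02, 1.699, 3.93, 3.01 and 5.64 CPM, without overlap. THRSP, a nuclear regulator of lipogenic enzymes, was at 32.5, 31.9, 46.7, 49.6 and 135 CPM against 2.795, 10.7, 9.94, 37.8 and 42.1 CPM, with restricted 7 highest and overlap elsewhere. ADIG, an adipocyte droplet protein, was at 0.8303, 0.524, 4.65, 1.88 and 3.62 CPM against 0, 0.503, 0.345, 1.26 and 0.972 CPM, with 0 reads in control 6. LIPE, the hormone-sensitive lipase that breaks down stored diglyceride, was at 10.6, 10.9, 14.3, 12.6 and 13.9 CPM against 7.73, 4.97, 6.42, 8.13 and 8.36 CPM, again without overlap. ADIRF, an adipogenesis factor, was at 9.74, 13.3, 21.4, 15.9 and 13.3 CPM against 6.36, 6.04, 9.66, 6.87 and 9.52 CPM, where the gap between the sets was narrow.

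PPARG, the nuclear receptor that directs fat cell formation, was at 2.71, 3.03, 3.199, 5.28 and 4.64 CPM in the rich set, 1.19, 1.76, 2.07, 2.803 and 3.11 CPM in the poor set and 1.66, 2.58, 3.01 and 1.97 CPM between them. Control 7 and restricted 7 were above all other samples, control 4 was below restricted 3, and the slope was 0.57 ± 0.10 (SE). CIDEA, a relative of CIDEC, was at 5.31, 5.36, 12.5, 6.53 and 22.8 CPM against 2.14, 4.28, 2.69, 7.64 and 6.41 CPM, where only control 3 and restricted 7 stood above the poor set. Over the whole list of adipocyte genes, 15 of 21 tested members had a positive log2 fold change, with a median of 0.79, where all genes had 6269 of 12250 and a median of 0.0048. The members with a negative value were PLIN4, GPD1, SLC7A10, AOC3, S100B and TMEM120B. Of these, SLC7A10 had a log2 fold change of -0.66 ± 0.20 (SE). CFD and AQP7 were positive with intervals that included 0, at 0.21 ± 0.30 (SE) and 0.0013 ± 0.14 (SE).

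LPL, PLIN4 and GPD1, which both fat and muscle fibres use, did not order the samples this way, and the reason was not tested. LPL, the lipase that frees fatty acids from lipoproteins, was at 117, 92.2, 131, 103 and 162 CPM in the rich set and 179, 91.7, 75.6, 144 and 132 CPM in the poor set, and its highest value of all 14 was that of control 6, the sample with the lowest score. PLIN4, a perilipin abundant in muscle, was at 212, 183, 210.2, 238 and 218 CPM against 264, 199, 311, 276 and 268 CPM, the rich mean being the lower one. GPD1, which supplies the glycerol backbone, was at 1336 ± 103 CPM in the rich and 1474 ± 143 CPM in the poor set. Summed over the 30 adipocyte list genes in the table, CPM therefore overlapped, at 1779.9 to 2208 CPM in the rich set and 1783 to 2235 CPM in the poor set, because a few muscle-abundant members made up most of the sum.

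The list of enzymes that build fatty acids had a median log2 fold change of 0.35 between the sets. Over 14 samples, 6 of its 23 tested members passed as higher with the score and 0 as lower. Of all 12968 genes tested, 0.216% passed as higher and 0.00771% as lower. Among these were ELOVL6, SCD, FASN, TKT and ACACA, of which SCD and FASN are counted here as adipocyte genes and are no separate evidence. ELOVL6, TKT and ACACA are of the same list, and whether they go with more than adipocyte content was not tested. SCD, the desaturase that makes oleate from stearate, was at 355, 381, 308, 478 and 1063 CPM in the rich set and 69.3, 241, 148, 332 and 381 CPM in the poor set. FASN, the synthase itself, was at 119, 107, 132, 141 and 268 CPM against 32.2, 64.9, 51.2, 123 and 99.4 CPM. For both genes restricted 7 was far above every other sample and control 6 was lowest. The sets overlapped, since control 4, control 2 and control 3 lay below restricted 3 in SCD, and control 4 and control 2 lay below control 1 in FASN.

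ELOVL6, which lengthens palmitate to stearate, was at 13.7, 14.98, 16.8, 17.4 and 52.4 CPM in the rich set, 1.43, 7.93, 6.28, 12.8 and 17.4 CPM in the poor set and 11.1, 15.98, 10.5 and 14.7 CPM between. It rose by 1.12 ± 0.14 log2 units (SE) per unit of score, with an adjusted p of 0.0012 by edgeR. Restricted 7 was far above the next sample, restricted 3 lay among the rich samples, and without restricted 7 the slope was 0.97 with an adjusted p of 0.0389. ACACA, the carboxylase that commits acetyl-CoA to fatty acids, was at 23.03, 24.9, 21.4, 30.2 and 57.2 CPM against 12.01, 16.99, 15.9, 22.6 and 27.5 CPM and had a slope of 0.48 ± 0.087 (adjusted p = 0.026). TKT, the transketolase of the pentose phosphate pathway, had a slope of 0.46 ± 0.082 (adjusted p = 0.0248). ELOVL5, an elongase of unsaturated chains, was at 7.196, 8.57, 6.82, 8.04 and 21.997 CPM against 3.45, 5.92, 4.83, 5.82 and 6.74 CPM, without overlap, and missed the threshold on the score (adjusted p = 0.0503).

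Much of this group's height came with 1 library. Without restricted 7 the median of the list was 0.12 with 15 of 23 positive, and without the 3 libraries high in interferon genes it was 0.065 with 15 of 23. ACACB, the carboxylase isoform that restrains fatty acid oxidation in muscle, was at 179 ± 16.2 CPM in the rich and 191 ± 30.1 CPM in the poor set, with a log2 fold change of -0.13 ± 0.12 (SE).

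**Figure D3:**
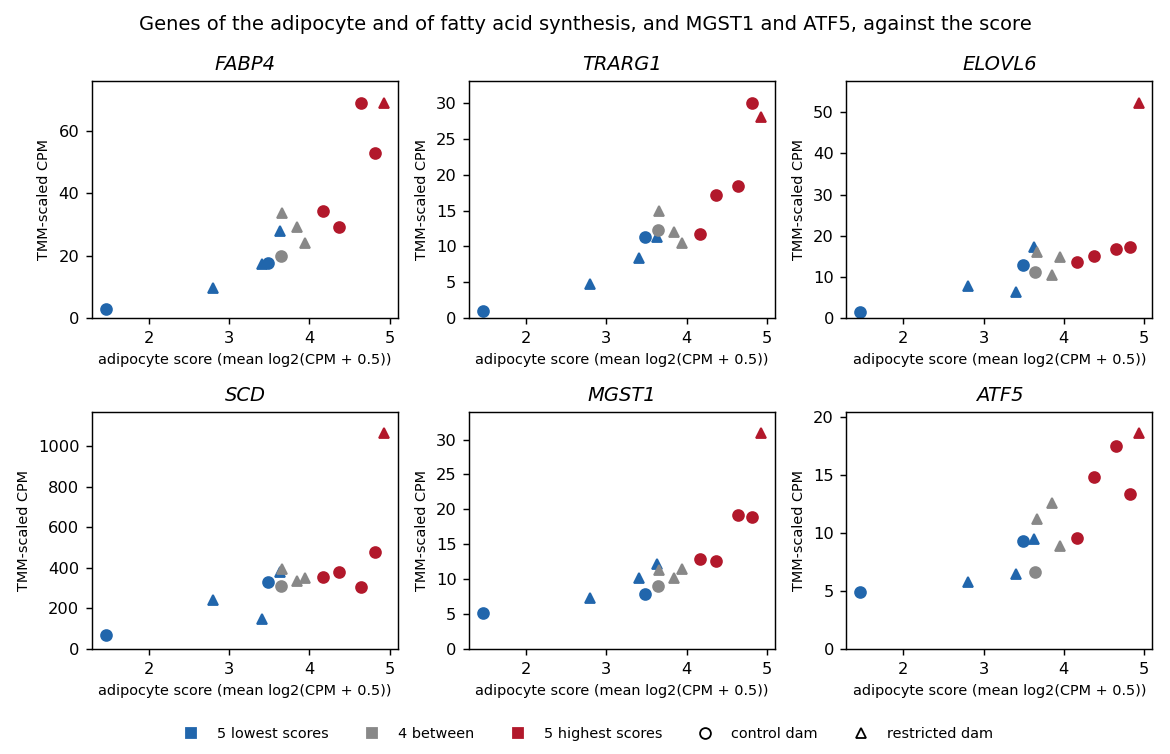
TMM-scaled CPM (y axis, from 0) of FABP4, TRARG1, ELOVL6, SCD, MGST1 and ATF5 against the adipocyte score (x axis) in the 14 samples, blue for the poor set, red for the rich set and grey for the samples between, with circles for control and triangles for restricted dams. Restricted 7, the rightmost triangle, is far above the rest for ELOVL6 and SCD, and control 6, the leftmost circle, is lowest for all 6 genes.

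ACSM1, GLYAT, PCK2 and ATF5, which are in none of the lists, also passed on the score. ACSM1, a mitochondrial medium-chain acyl-CoA synthetase, was at 7.09, 6.35, 9.11, 13.1 and 11.3 CPM in the rich set and 0.892, 3.901, 5.87, 3.64 and 6.93 CPM in the poor set. It rose by 0.95 ± 0.12 (SE) per unit of score (edgeR, adjusted p = 0.0012), and the sets overlapped, since control 2 lay below restricted 3. GLYAT, which joins glycine to acyl groups in mitochondria, was at 0.941, 1.22, 1.81, 2.14 and 4.24 CPM against 0.0595, 0.503, 0.276, 0.841 and 1.04 CPM and had the second steepest slope of the 28, 1.5 ± 0.21 (SE, adjusted p = 0.0036). PCK2, the mitochondrial PEP carboxykinase, had a slope of 0.88 ± 0.15 (adjusted p = 0.0219). ATF5, a transcription factor of the stress response that acts with C/EBP factors in fat cell formation, was at 9.52, 14.8, 17.5, 13.3 and 18.5 CPM against 4.94, 5.79, 6.42, 9.25 and 9.46 CPM, without overlap, and had a slope of 0.59 ± 0.092 (adjusted p = 0.00906).

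Among genes with a symbol and outside the adipocyte list, those with the smallest p in the comparison of the sets were MGST1, SOST, CCDC3, ELOVL5 and MDFI on the higher side, none of which passed edgeR's adjusted threshold there. RBP4, of the adipocyte list, ranked between SOST and CCDC3. MGST1, a membrane-bound glutathione transferase, was at 12.8, 12.6, 19.1, 18.97 and 30.9 CPM in the rich set, 5.17, 7.24, 10.1, 7.85 and 12.1 CPM in the poor set and 9.03, 11.3, 10.2 and 11.5 CPM between. All 5 rich samples were above all poor ones, by the narrow margin of control 2 over restricted 3, and the ratio was 2.71-fold (95% interval 1.998 to 3.69) with an adjusted p of 0.152 by edgeR and 6.32e-07 by DESeq2. Over 14 samples it rose by 0.69 ± 0.083 (SE) per unit of score, with an adjusted p of 0.0012. CCDC3, a secreted protein of fat and endothelium, was at 8.97, 12.8, 11.8, 12.3 and 17.2 CPM against 3.57, 5.79, 8.63, 7.29 and 7.58 CPM, without overlap, and rose by 0.60 ± 0.074 per unit (adjusted p = 0.0012).

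MDFI, an inhibitor of myogenic transcription factors, was at 0.775, 1.28, 1.51, 1.19 and 2.88 CPM against 0.178, 0.189, 0.483, 0.631 and 0.583 CPM, without overlap, at a mean of 15.4 reads per library. Its ratio between the sets was 4.49-fold (95% interval 2.399 to 8.399) and its slope 1.17 ± 0.19 (adjusted p = 0.0141). Every poor sample was under the filter's minimum count of 10 for MDFI. This gene therefore entered the comparison of the sets through the rich samples, and the fit over 14 samples through samples of higher score. Its ratio, its lack of overlap, its slope and the adjusted p of the slope are a description only. SOST, the gene of the Wnt inhibitor sclerostin, was at 2.99, 3.96, 3.56, 4.21 and 7.86 CPM against 1.43, 2.33, 2.14, 1.96 and 3.303 CPM, where control 4 fell inside the poor range, and it had a slope of 0.58 ± 0.11 (adjusted p = 0.026). S100A10, a calcium-binding partner of annexin A2, was at 19.5, 24.4, 21.8, 25.4 and 28.2 CPM against 10.3, 15.04, 13.2, 17.2 and 20.2 CPM, and its slope was 0.40 ± 0.063 (adjusted p = 0.00906). MAL2, SLC13A3, PRR5L, S100G, XPNPEP2 and FKBP14 were also past the threshold, with slopes of 0.96 ± 0.17, 0.83 ± 0.15, 0.75 ± 0.14, 0.85 ± 0.16, 0.86 ± 0.16 and 0.28 ± 0.054 and adjusted p of 0.0219, 0.0225, 0.026, 0.0298, 0.0348 and 0.0371. SLC13A3 had a mean of 8.57 reads per library and did not pass the filter of the comparison of the sets. Every poor sample was under the minimum count of 10 for it, so it entered the fit over 14 samples through samples of higher score. The slope and adjusted p of SLC13A3 are therefore a description only. MAL2, XPNPEP2, S100G and PRR5L had means of 20.1, 22.1, 26.6 and 26.9 reads per library.

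On the lower side the smallest p of genes with a symbol belonged to ARID5B, ESR1, FYCO1, C1H3orf70 and TMEM120A, and none passed by edgeR. ENSBTAG00000024492, which has no symbol, ranked ahead of them with a log2 fold change of -0.93 and an adjusted p of 0.357 by edgeR and 8.69e-04 by DESeq2, and all 5 rich samples lay below all 5 poor samples. ARID5B, a chromatin regulator, was at 26.2, 25.9, 31.7, 30.5 and 11.4 CPM in the rich set and 44.9, 33.98, 35.7, 37.6 and 36.3 CPM in the poor set, but at 24.2, 17.1, 17.7 and 120.0 CPM in the samples between, 1 of which was the highest of all 14. Its log2 fold change of -0.88 ± 0.19 (SE) turned to 0.19 with 6 samples on each side and to 0.33 with the score taken from ADIPOQ alone. ESR1, the estrogen receptor, was at 22.6, 19.9, 20.5, 23.9 and 25.3 CPM against 35.9, 28.5, 33.7, 28.7 and 31.3 CPM, without overlap, a ratio of 0.724-fold (95% interval 0.615 to 0.852). FYCO1, an adaptor for the transport of autophagosomes, was at 192, 165, 177, 189 and 159 CPM against 239, 216, 213, 215 and 224 CPM without overlap. With scaling to library size alone the sets overlapped for FYCO1. By DESeq2, ARID5B and FYCO1 passed (adjusted p of 0.00353 and 0.0125), as did the 5 genes named on the higher side. Of these 5, MDFI is a description only. The 1 gene lower with the score over 14 samples was ENSBTAG00000053052, which has no symbol. It fell by 1.32 ± 0.23 log2 units (SE) per unit of score, with an adjusted p of 0.0219 by edgeR. This gene had a mean of 17.5 reads per library and did not pass the filter of the comparison of the sets. It was at 5.83, 3.59, 0.621, 0.3504 and 0.453 CPM in the poor set and at 0.332, 1.17, 0.845, 0.188 and 0.113 CPM in the rich set, so that the 2 samples lowest in score stood apart from all the others.

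By DESeq2, S100A4, ANXA1 and ANXA2, calcium-dependent binding proteins, and VIM, the intermediate filament of mesenchymal cells, also passed as higher in the rich set, with log2 fold changes of 1.08, 0.73, 0.67 and 0.42 and adjusted p of 0.00529, 0.0244, 0.0183 and 0.0308. CLU, the extracellular chaperone clusterin, had 0.82 (adjusted p = 0.00529), and COL1A2, a chain of type I collagen, had 0.89 (adjusted p = 0.0487). Of the 29 DESeq2 calls, 10 were among the 29 genes past edgeR's threshold on the score. These genes were chosen for naming after their values were seen.

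The lists for the remaining steps of lipid handling had medians near that of all genes. Of triglyceride assembly, 10 of 20 tested members had a positive log2 fold change, with a median of -0.00014. GPAT3 and AGPAT2, acyltransferases of that pathway, had log2 fold changes of 0.77 ± 0.22 (SE) and 0.48 ± 0.17 (SE), and ACSL1, the long-chain acyl-CoA synthetase, had -0.29 ± 0.15 (SE). The list of lipolysis and droplet proteins had 5 of 15 positive (median -0.061), fatty acid uptake 6 of 16 (median -0.059), and glucose uptake and insulin signalling 9 of 20 (median -0.067). No member of these 4 lists passed edgeR's threshold in either fit. By DESeq2, 1 member was called higher, LIPE of the lipolysis list, where 0.196% of all 12245 genes were. LIPE is also an adipocyte gene, described above by values, and its call is no separate evidence. CD36, the fatty acid translocase, was at 238 ± 29.7 CPM in the rich and 245 ± 28.1 CPM in the poor set, a difference smaller than the SD of either set.

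Transcription factors of fat cell formation had 10 of 20 members positive with a median of 0.036. PPARG was the member past the threshold on the score, and it is counted among the adipocyte genes that measure the same cells as the score. ZNF423, a factor of committed preadipocytes, had a log2 fold change of -0.27 ± 0.14 (SE) and EBF1, another early factor, 0.37 ± 0.21 (SE). Secreted factors of fat had 17 of 22 positive, with a median of 0.17. SFRP5, a Wnt-binding adipokine, was at 1.88, 4.31, 2.29, 3.64 and 1.92 CPM against 0.535, 0.818, 2.14, 1.12 and 0.972 CPM, and did not pass. Genes of brown and beige fat had 4 of 10 positive, with a median of -0.16.

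The collagen genes COL1A1 and COL3A1 were higher in 4 of the 5 rich samples than in any poor sample. The list of genes of the fibrillar matrix and its processing had a median log2 fold change of 0.44 between the sets, and none passed edgeR's threshold in either fit. COL1A1, a chain of type I collagen, was at 109, 131, 51.5, 103 and 167 CPM in the rich set and 60.1, 50.4, 77.7, 68.3 and 51.2 CPM in the poor set. Control 3, the third highest of all samples in score, was among the lowest in COL1A1, and the other 4 rich samples were above the whole poor set. The ratio was 1.93-fold (95% interval 1.33 to 2.81) with an edgeR adjusted p of 0.575. COL3A1, the type III collagen of loose connective tissue, was at 329, 412, 191, 294 and 517 CPM against 241, 193, 206, 212 and 208 CPM, with the same sample low. In control 5, restricted 2, restricted 1 and restricted 6, between the sets, COL1A1 was at 45.4, 99.5, 87.1 and 47.2 CPM. COL3A1 was at 137, 273, 284 and 191 CPM there. Control 4, control 2, restricted 2, restricted 1 and restricted 7 have titles ending in B. For both genes they were above all other samples except control 7. The part of the title letter was not tested beyond the fit given next. With the last letter of the title as a further covariate the median of the list was 0.16 with 24 of 33 positive, and without the libraries high in interferon genes it was 0.27 with 27 of 33.

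The fibro-adipogenic progenitors and fibroblasts, from which fat cells arise, were marked by a list with 17 of 25 positive and a median of 0.17. PDGFRA, the receptor that defines these cells, was at 19.2, 25.4, 16.7, 27.9 and 24.5 CPM in the rich set and 20.9, 15.2, 20.8, 16.3 and 15.9 CPM in the poor set, with overlap. LUM, a proteoglycan of fibroblasts, was at 20.5, 36.2, 17.6, 21.2 and 35.6 CPM against 17.8, 15.7, 15.04, 19.3 and 18.5 CPM, with control 3 inside the poor range. CXCL14, a chemokine of fibroblasts, had a log2 fold change of 1.18 ± 0.30 (SE) and THY1, a surface marker, 0.76 ± 0.21 (SE). The summed CPM of the 30 list genes ranged over 695 to 1014 CPM in the rich set and 626 to 871 CPM in the poor set. The part of connective tissue content in the differences of other genes was not tested.

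Genes of vessels were near the level of all genes. The endothelial list had 7 of 22 positive with a median of -0.026, and PECAM1, a junction protein of endothelium, was at 44.7, 35.5, 23.4, 24.1 and 29.5 CPM against 30.3, 28.6, 24.7, 35.3 and 36.01 CPM, a log2 fold change of -0.023 ± 0.19 (SE) with a 95% interval of -0.44 to 0.40. Smooth muscle and pericyte genes had 6 of 15 positive (median -0.018), and ACTA2, the smooth muscle actin, was at 43.8 ± 8.41 against 38.2 ± 4.85 CPM. Basement membrane genes had 11 of 15 positive (median 0.072), but 3 of 15 (median -0.25) without restricted 7.

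**Figure D4:**
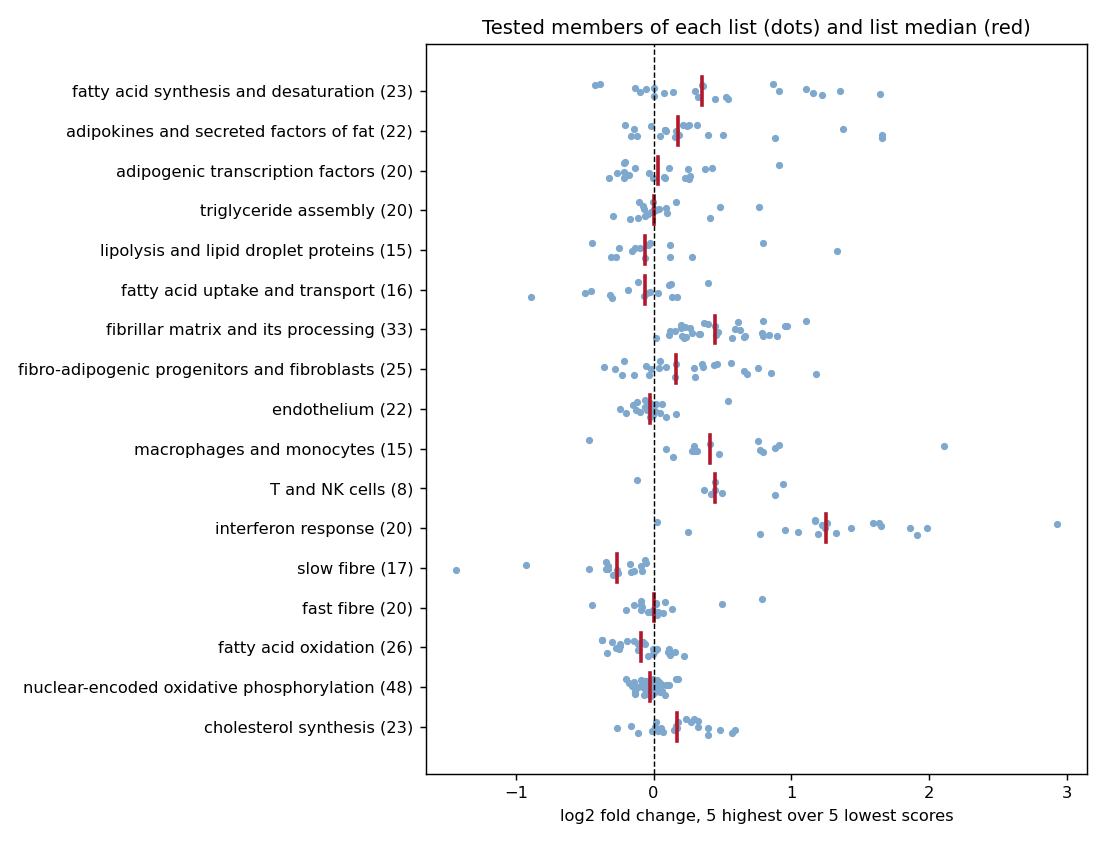
Log2 fold change between the rich and poor sets (x axis) of each tested gene in 17 lists (dots, spread vertically at random) with the median of each list as a red bar and the median of all genes as a dashed line; numbers of genes are in parentheses. The fibrillar matrix and interferon lists lie wholly right of 0 and the slow fibre list wholly left of it.

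Genes of the muscle fibres themselves showed small differences. All 17 tested genes of slow, oxidative fibres had a negative log2 fold change, with a median of -0.27, and none passed. MYH7, the slow myosin heavy chain, was at 13145, 7256, 10927, 8082 and 10749 CPM in the rich set and 14532, 9571, 8656, 15876 and 11679 CPM in the poor set. The ranges overlapped, the lowest value being that of control 2 and the highest that of control 1, and the log2 fold change was -0.35 ± 0.19 (SE) with an interval of -0.77 to 0.073. The list was less one-sided without control 6, where 3 of 17 were positive, and with 6 samples on each side, where 6 of 17 were positive with a median of -0.078. Fast fibre genes had 10 of 20 positive with a median of 0.0061. MYH2, the fast oxidative myosin, was at 13302, 9054, 12275, 13526 and 13614 CPM against 14930.0, 16094, 12921, 18708 and 25039 CPM, and MYH1, the fast glycolytic one and a near-identical paralog whose reads may be shared, at 52648 ± 5097 against 58841 ± 4576 CPM.

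Fatty acid oxidation genes had 8 of 26 positive with a median of -0.089. CPT1B, the muscle carnitine transferase that admits fatty acids to mitochondria, was at 38.9, 28.7, 34.4, 28.01 and 35.7 CPM against 43.95, 33.4, 45.8, 50.7 and 36.5 CPM, and ETFDH, which passes their electrons to ubiquinone, at 67.03, 79.5, 81.97, 77.4 and 84.7 CPM against 89.6, 94.4, 87.3, 103 and 107 CPM, without overlap for ETFDH; neither passed. With scaling to library size alone the sets overlapped for ETFDH. Nuclear genes of oxidative phosphorylation had 17 of 48 positive (median -0.027), with a shift to 44 of 48 (median 0.18) when the title letter was a covariate. Glycolysis and glycogen genes had 13 of 27 positive and those of the citric acid cycle 12 of 24. Satellite cell and myogenic genes had 6 of 15 positive (median -0.059), and MSTN, the muscle growth inhibitor myostatin, was at 23.9 ± 8.61 against 26.4 ± 6.304 CPM.

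Interferon-induced genes had the largest median of all lists examined, 1.25 with 20 of 20 positive, and it rested on 2 rich libraries. MX1, an antiviral GTPase, was at 5.65, 2.56, 3.199, 46.8 and 83.3 CPM in the rich set and 8.98, 3.398, 38.6, 5.12 and 3.56 CPM in the poor set. Without the 3 libraries high in these genes, 2 of 20 were positive and the median was -0.72. Macrophage genes had 14 of 15 positive (median 0.41), which became 7 of 15 (median -0.041) without those libraries. Their summed CPM was 29.2 to 52.6 CPM in the rich set and 22.6 to 36.7 CPM in the poor set. T and NK cell genes had 7 of 8 positive (median 0.45), and 5 of 8 (median 0.10) without them.

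Inflammatory and complement genes had 11 of 13 positive with a median of 0.34, and 10 of 13 (median 0.37) without the libraries high in interferon genes. C1S, a complement protease made by fibroblasts and fat, was at 20.9, 28.8, 23.6, 31.5 and 25.8 CPM against 23.02, 16.7, 24.7, 13.7 and 14.8 CPM and did not pass. Cholesterol synthesis genes had 19 of 23 positive (median 0.17), and 13 of 23 (median 0.022) without those libraries. INSIG1, the sterol-regulated retainer of SREBP, had a log2 fold change of 0.57 ± 0.25 (SE).

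**Figure D5:**
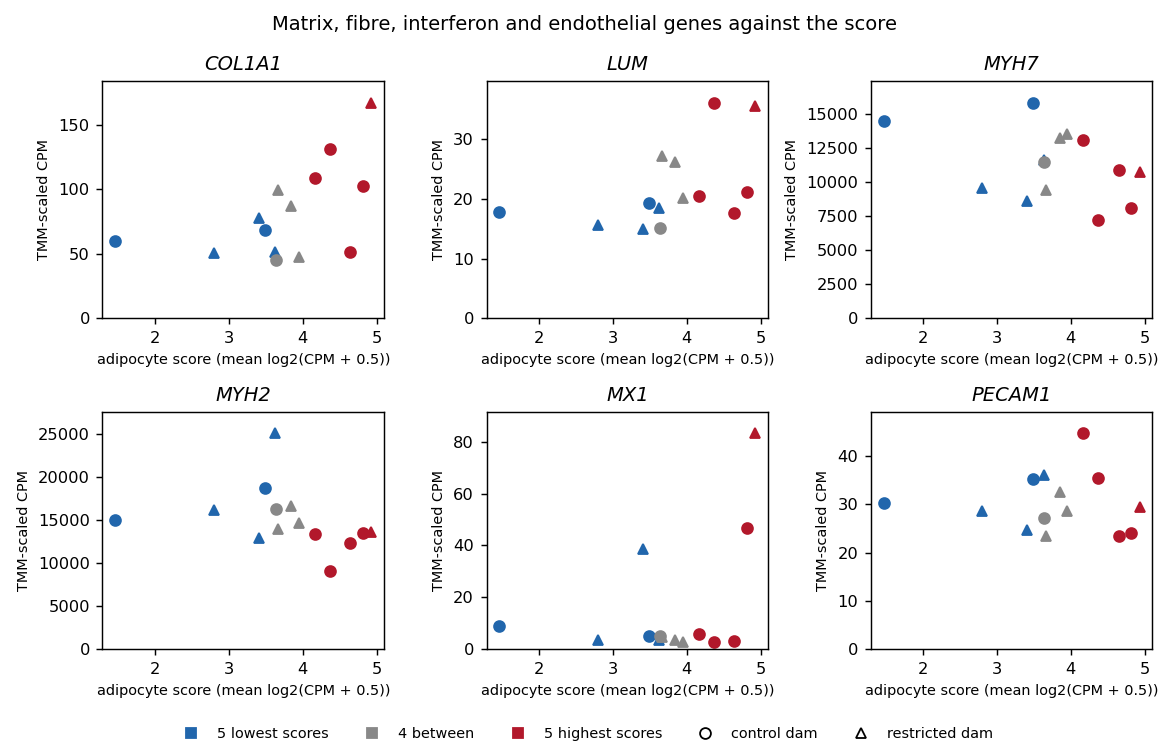
TMM-scaled CPM (y axis, from 0) of COL1A1, LUM, MYH7, MYH2, MX1 and PECAM1 against the adipocyte score (x axis) in the 14 samples, blue for the poor set, red for the rich set and grey for those between, with circles for control and triangles for restricted dams. COL1A1 is high in most rich samples with control 3 low, and also in restricted 2 and restricted 1. LUM is highest in control 2 and restricted 7, MX1 is high in 3 samples, and PECAM1 shows no order.

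The third comparison asked whether what accompanies the score differs between the diets. In a fit with the interaction of diet and score over 14 samples, 0 of 12968 genes passed edgeR's adjusted threshold, the smallest adjusted p being 0.142, and 757 had an unadjusted p under 0.05. By limma's voom, 0 passed. The slopes given above are thus those of both diets together, and a difference between diets was not detectable with 7 animals in each.

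How far the counts of genes past the threshold rest on single samples was examined by leaving each out. Of the 28 genes higher with the score, 6 were called without restricted 7, and these were the adipocyte genes FABP4 and TRARG1 with ACSM1, ELOVL6, MGST1 and CCDC3. Without control 6, 16 genes were called in either direction, of which 9 were among the 29 called over 14 samples. Without restricted 5 the fit called 17 and without control 7 it called 18, all of them among the 29. Without the 3 libraries high in interferon genes 7 were called, 6 of them among the 29. With the last title letter as a covariate 14 were called and among the samples whose titles end in A 3, all among the 29. All 29 genes kept their direction and an unadjusted p under 0.05 in each of the 23 alternative fits. The 29 were selected for small p in these same samples, most of which the alternative fits share, so this is no separate support. The part of the title letter and of the interferon response in these slopes was not tested beyond these fits.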

How the data were processed

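Total RNA of 14 muscle samples was measured, 7 per diet group by the treatment label. The authors deposited 1 table of unnormalized integer counts for all samples, with a gene length beside them. Per the submitters' processing notes, FastQC, HISAT2, featureCounts and edgeR were used with the build ARS-UCD1.2; versions, annotation, strand setting and the treatment of multiply aligned reads are not stated there, so overlapping, antisense and near-identical genes are uncertain. The table held 18078 genes, 2603 without a usable symbol, of which 25 had become spreadsheet dates. Gene symbols were taken from the table.

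The analysis used edgeR 4.0.16 in R 4.3.3. The score used CPM of the column sum and a pseudocount of 0.5. Genes were kept by filterByExpr (minimum count 10, minimum total 15), and libraries were scaled by TMM. The filter used the 2 sets for their comparison, which left 12250 genes tested. For the fits over 14 samples it used the design of the fit, with score and diet, which left 12968. The sets were compared with the quasi-likelihood F test and diet as a covariate, leaving out the 4 samples between them. The score as a continuous covariate, alone with diet and with its interaction, was tested over all 14. P-values were adjusted by Benjamini-Hochberg over all genes tested, with a threshold of 0.05. Standard errors are the log2 estimate divided by the root of F. DESeq2 1.42.0 and limma 3.58.1 were alternatives, beside other scalings, filters, set sizes, score genes and samples left out. The scripts were tested on simulated data. Chi-square tests of counts found every pair of libraries different, with at least 12.8 per degree of freedom. Total counts were 13631018 to 17325779 per sample; the biological coefficient of variation was 0.187 and 95% intervals reached 0.34 log2 to either side at the median, so that 88.1% of them excluded a 2-fold difference.

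The samples, the lists and the tests were chosen with earlier results of these data known. The genes named are, of those with a symbol and outside the adipocyte list and the score, the 5 with the smallest p in each direction where fewer than 5 passed, of each list up to 4 members with the smallest p and the 2 most abundant, a fixed set of adipocyte, fibre and cell type genes, and those past the threshold over 14 samples or by DESeq2, named after their values were seen. Samples are numbered within a diet by accession, and the numbers pair no animals. Some genes that met these rules are not reported here.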

Additional observations from a re-analysis of the deposited data

Results flagged for a closer look

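Of 68 sets of values checked, of single genes or of the score, 8 held 1 sample that stood apart from the other 4 by Dixon's criterion at 95%. Chance alone marks about 5% of sets of independent, normally distributed values. These genes share libraries and some were chosen for their difference, so the 8 cannot be compared with that rate. Of the 8, 6 were restricted 7 within the rich set. It was highest for SOST at 7.86 CPM (the next at 4.21), for ELOVL5 at 21.997 CPM (8.57), for FASN at 268 CPM (141), for SCD at 1063 CPM (478) and for THRSP at 134.98 CPM (49.6), and lowest for ARID5B at 11.4 CPM (the next at 25.9). These 6 values come from 1 library and are not separate observations. MYH1 was highest among the rich samples in control 7 at 61487 CPM (51999), and PAX7 lowest in control 2 at 0.233 CPM (0.905).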

How the results depend on the processing

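In the comparison of the sets the count of genes called higher was 0 and became 1 with library size scaling, 1 without a filter, 24 with DESeq2 and 28 with the score as a continuous covariate; with 1 sample left out it was 0 to 10. The count called lower was 0, and 5 and 1 with DESeq2 and the continuous score. Over 14 samples the counts of 28 higher and 1 lower became 51 and 6 without a filter and 46 and 3 with DESeq2. Voom gave 14 higher. With the last title letter as a covariate they were 14 and 0, with titles ending in A only 3 and 0, and without the interferon-high libraries 7 and 0. With 1 sample left out they were 6 to 31 and 0 to 2. These alternatives over 14 samples were chosen after the data were seen. The difference of the adipocyte score between diets ranged from -0.44 to 0.118 with 1 sample left out, and was above 0 without control 2 (0.043), control 3 (0.0885), control 4 (0.00845), control 7 (0.118), restricted 4 (0.00399) or restricted 5 (0.105). ARID5B turned to 0.19 with 6 against 6 samples and to 0.33 with ADIPOQ alone. The cause was not tested. With 5 samples in each set, differences under the intervals' width were not detectable. No paired analysis was possible because the replicate numbers follow only the order of the samples.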
